A study of Mus musculus with 5 samples.

Results

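ZFP24, a zinc finger transcription factor also named ZFP191, was mapped by chromatin immunoprecipitation and sequencing (ChIP-seq) in mouse oligodendrocyte progenitor cells (OPC) and in the oligodendrocytes (OLG) grown from them. The peaks described here are those of the progenitor list that lay in introns, away from promoters, and that the oligodendrocyte list did not share. They were selected on the peak calls of both lists: an OPC peak sharing no base with any OLG peak, its centre more than 1 kb from every start of a protein-coding transcript, inside a protein-coding gene body and in no annotated exon. This left 1409 peaks, or 30.3% of the 4643 OPC peaks, and 6395 peaks were in both lists together. That they are absent from the OLG list and intronic is the choice itself and not a result.

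The tested library came from wild-type C57BL/6 OPC, immunopanned from brain at postnatal day 7. Wild-type OLG had been differentiated from such cells over 5 days, with PDGF withdrawn and 40 ng/ml triiodothyronine added. Zfp24-null OPC, Zfp24-null OLG and an input pooled from all 4 cell preparations were the controls. Each group was 1 library, so nothing was replicated: every test below is over peaks, which are not replicates of a condition. Both lists held positions only, all OPC peaks 209 bp wide and all OLG peaks 221 bp wide, so depth and peak height are unknown. The 95% intervals given with shares are exact ones (Clopper-Pearson), and they reflect the number of peaks counted and nothing else. Absence from the OLG list may reflect calling or depth as well as binding, and these cannot be told apart. Cell identity could not be checked against marker expression, since no expression was measured.

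ZFP24 carries zinc fingers of the C2H2 type and a SCAN domain, through which such proteins pair. It is known to bind tandem TCAT repeats and is needed for myelination in the central nervous system: mice without it form oligodendrocytes that fail to myelinate properly. Introns often hold enhancers, stretches of DNA that transcription factors bind and that can act on the host gene or on neighbours. A peak inside a gene therefore does not name its target, and the host gene is given below as its address only.

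Of the progenitor-only intronic peaks, 257 held a tract of tandem TCAT of at least 12 bases in the 200 bp around their centre, and 1152 did not. The 6 peaks with a tract shown first were taken mostly from the longer tracts, and the last 2, without one, lie in transcription factor genes of the lineage; all were picked after their values were seen. Each is the whole 209 bp peak from the GRCm38 (mm10) reference, 5′ to 3′, with the tract in capitals. Strands are chosen so that the tract reads TCAT, and without a tract the strand is that of the host gene. The peak of Zfp536, a zinc finger repressor gene of the nervous system, is chr7:37760435-37760643, minus strand. That of Adal, an adenosine deaminase-like gene, is chr2:121153033-121153241, minus strand. That of the calcium channel gene Cacna1e is chr1:154408942-154409150, plus strand. That of the insulin-like growth factor receptor gene Igf1r is chr7:68056480-68056688, minus strand. That of the potassium channel gene Kcnd3 is chr3:105663633-105663841, minus strand. That of Mag, which encodes myelin-associated glycoprotein, is chr7:30908117-30908325, minus strand. Those of Tcf7l2, a Wnt pathway factor, and of the zinc finger factor gene Zeb2 are chr19:55744150-55744358, plus strand, and chr2:45021397-45021605, minus strand.
Zfp536: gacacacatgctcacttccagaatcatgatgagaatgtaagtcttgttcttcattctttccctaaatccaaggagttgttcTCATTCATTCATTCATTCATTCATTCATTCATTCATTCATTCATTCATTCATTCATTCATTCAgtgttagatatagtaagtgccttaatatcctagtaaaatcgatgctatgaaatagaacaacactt
Adal: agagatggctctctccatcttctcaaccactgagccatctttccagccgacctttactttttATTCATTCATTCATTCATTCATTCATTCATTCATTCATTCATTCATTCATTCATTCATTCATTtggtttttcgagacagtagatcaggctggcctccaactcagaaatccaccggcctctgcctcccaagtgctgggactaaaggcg
Cacna1e: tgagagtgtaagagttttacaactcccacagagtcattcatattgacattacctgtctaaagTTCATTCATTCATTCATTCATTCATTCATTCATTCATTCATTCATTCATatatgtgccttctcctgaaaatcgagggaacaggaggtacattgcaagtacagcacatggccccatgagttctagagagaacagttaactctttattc
Igf1r: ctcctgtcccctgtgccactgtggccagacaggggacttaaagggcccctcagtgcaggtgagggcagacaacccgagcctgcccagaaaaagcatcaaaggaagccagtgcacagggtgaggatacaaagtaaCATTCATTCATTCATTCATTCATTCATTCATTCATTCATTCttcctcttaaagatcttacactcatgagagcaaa
Kcnd3: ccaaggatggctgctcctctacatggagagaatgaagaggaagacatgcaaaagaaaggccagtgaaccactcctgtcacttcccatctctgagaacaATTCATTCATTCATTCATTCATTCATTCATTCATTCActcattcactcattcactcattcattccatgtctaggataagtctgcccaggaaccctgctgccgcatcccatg
Mag: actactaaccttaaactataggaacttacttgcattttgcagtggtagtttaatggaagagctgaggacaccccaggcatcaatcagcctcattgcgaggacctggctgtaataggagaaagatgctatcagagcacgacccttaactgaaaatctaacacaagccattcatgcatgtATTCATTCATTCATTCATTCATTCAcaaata
Tcf7l2: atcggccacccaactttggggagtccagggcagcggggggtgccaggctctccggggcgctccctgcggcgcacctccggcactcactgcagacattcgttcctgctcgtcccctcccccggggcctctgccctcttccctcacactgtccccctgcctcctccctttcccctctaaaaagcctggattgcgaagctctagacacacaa
Zeb2: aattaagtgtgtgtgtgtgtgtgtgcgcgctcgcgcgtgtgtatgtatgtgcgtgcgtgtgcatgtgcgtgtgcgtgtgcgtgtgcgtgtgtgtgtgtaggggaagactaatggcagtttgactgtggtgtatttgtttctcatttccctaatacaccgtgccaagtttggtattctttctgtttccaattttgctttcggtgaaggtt

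The longest tracts of all the progenitor-only intronic peaks were those of Adal and Zfp536, at 63 bases each. In Adal the peak lay in intron 8 of 9 of a 16.3-kb gene, and in Zfp536 in intron 1 of 5 of a 302-kb gene. Cacna1e held a tract of 49 bases in intron 42 of 46, Igf1r one of 41 bases in intron 2 of 20, Kcnd3 one of 37 bases in intron 3 of 6, and Mag one of 25 bases in intron 7 of 12. The tract of Kcnd3 was followed by TCAC interleaved with TCAT, and TCAC occurred 4 times in that peak. The Tcf7l2 peak, in intron 3 of 11, was rich in G and C (65.6%), and the Zeb2 peak, in intron 4 of 10, held a long stretch of alternating GT. The other members of the 10 with the longest tracts lay in Cacng2 and Slc15a5 (53 bases each), Slc30a4 (52), Scml4 (49), Zfp142 (48), Memo1 and Ddx31 (47 each, a length that 4 peaks shared). Cacng2 encodes an auxiliary subunit of AMPA receptors, Slc30a4 a zinc transporter and Ddx31 an RNA helicase.

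Tandem TCAT set these peaks apart from the sequence next to them. It was found in 257 of the 1409 peaks, or 18.2% (16.3 to 20.4), against 2 of the 1409 windows 2 kb to the right, or 0.142%. In the exact McNemar test, 256 peaks held a tract where their own flank did not, and 1 flank held one where its peak did not (two-sided p = 2.23e-75). Over all OPC peaks the share was 12.2%, and a tract at OPC peaks in general was known when these peaks were chosen. The median of the longest tract was 29 bases (quartiles 22 and 36). By length, 34 peaks had a longest tract of 12 to 15 bases, 40 of 16 to 23, 78 of 24 to 31, 97 of 32 to 47, and 8 of 48 or more. The tract's middle lay a median of 39.5 bp from the peak centre, within 50 bp of it in 156 peaks (60.7%), and 62 tracts covered the centre. A further tract was present in 44 of the 257 peaks, with at most 3 in a peak. A longest run of 8 to 11 bases was found in 48 peaks (3.41%) and 31 flanks (2.20%). In the 1151 pairs with no tract in peak or flank, such a run was in the peak alone in 48. It was in the flank alone in 28 (exact McNemar test, not adjusted, p = 0.0286). No run of even 8 bases was found in 1104 peaks, or 78.4%.

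Among the classes of peak, the tract was more frequent in progenitor-only intronic peaks than in intergenic and promoter peaks of the same list and than in oligodendrocyte-only intronic peaks, and less frequent than in intronic peaks of both lists. The 4 comparisons were made with Fisher's exact test, two-sided, and adjusted together. OPC-only intergenic peaks held a tract in 179 of 1261, or 14.2% (odds ratio of intronic over intergenic 1.35, 1.09 to 1.67, adjusted exact p = 0.00541). That difference was the smallest of the 4, and it missed the threshold of 0.05 with a window of 100 bp (odds ratio 1.26, adjusted exact p = 0.0644) or a promoter limit of 500 bp (1.15, adjusted exact p = 0.182). OPC-only promoter peaks held a tract in 24 of 1499, or 1.60% (odds ratio 13.7, 8.93 to 21.9, adjusted exact p = 4.00e-58). OLG-only intronic peaks, chosen by the same rule with the lists exchanged, held one in 12 of 370, or 3.24% (odds ratio 6.65, 3.68 to 13.2, adjusted exact p = 1.17e-15). Cell type, library and calling change together in that comparison. Intronic OPC peaks that overlapped an OLG peak held one in 40 of 54, or 74.1% (odds ratio 0.0783, 0.0387 to 0.150, adjusted exact p = 9.30e-18).

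**Figure D1:**
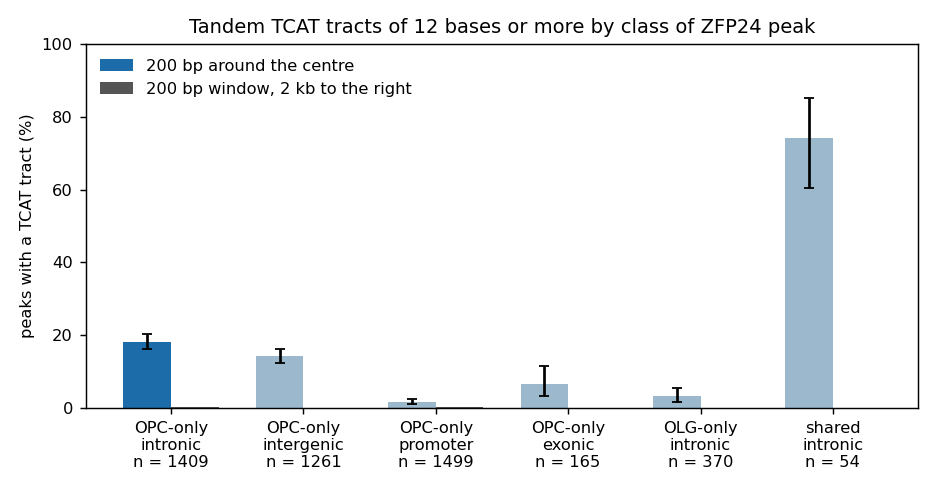
Share of peaks with a tandem TCAT tract of at least 12 bases (y axis, %) by class of ZFP24 peak, with exact 95% intervals, and beside each bar the share in windows 2 kb to the right (dark bars, at most 0.334%). The 1409 progenitor-only intronic peaks stand at 18.2%, above the OPC-only intergenic (14.2%), promoter (1.60%) and OLG-only intronic (3.24%) peaks and below the 54 shared intronic peaks (74.1%).

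Counted from the genome, intronic tracts were called as OPC-only peaks more often than intergenic ones. OPC-only peaks of any kind were also denser in introns (1.52 per Mb) than between genes (0.808 per Mb), so this is not particular to tracts. Whether tracts differ from other sequence here was not tested. Eligible introns held 7121 TCAT tracts of at least 12 bases, of which 312, or 4.38% (3.92 to 4.88), lay at a progenitor-only intronic peak. Intergenic sequence held 9165, of which 228, or 2.49% (2.18 to 2.83), lay at an OPC-only intergenic peak. By length, a split chosen once the data had been seen, the share rose with tract length in introns: it was 1.57% for tracts of 12 to 15 bases, 3.65% for 16 to 23, 7.91% for 24 to 31, 20.1% for 32 to 47 and 29.0% for 48 or more. The intergenic shares in the same bins were 1.03%, 2.46%, 4.44%, 10.6% and 32.6%. Intronic tracts were ahead in the bins of 12 to 15 bases (Fisher's exact test adjusted over 5 bins, p = 0.0299), 24 to 31 (adjusted exact p = 0.00168) and 32 to 47 (odds ratio 2.12, 1.5 to 3.03, adjusted exact p = 4.52e-05). The bin of 16 to 23 (adjusted exact p = 0.0808) and that of 48 or more, with 9 of 31 intronic and 14 of 43 intergenic tracts at a peak (adjusted exact p = 0.803), missed the threshold. In every length bin, most intronic tracts were at no progenitor-only intronic peak; tracts at shared peaks are not counted here.

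**Figure D2:**
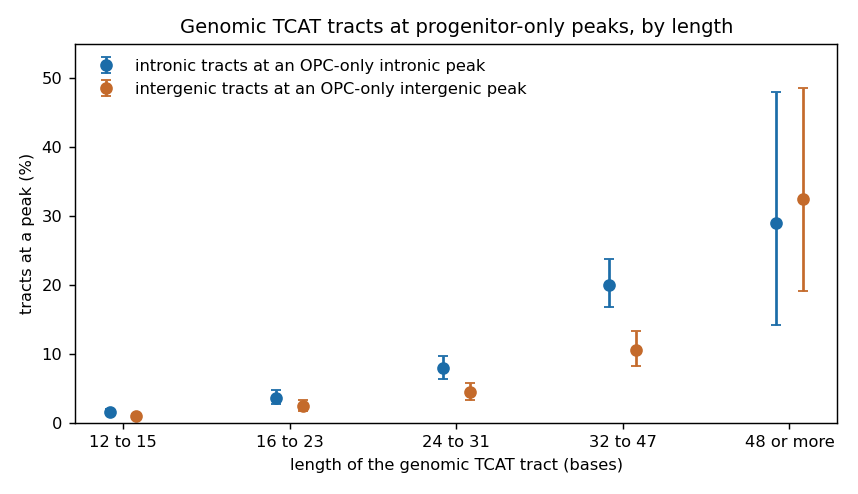
Share of genomic TCAT tracts that lie at an OPC-only peak (y axis, %) by tract length in bases (x axis), for intronic tracts at intronic peaks (blue) and intergenic tracts at intergenic peaks (orange), with exact 95% intervals. In introns the share goes up over the bins, with 1.57% in the shortest and 29.0% in the longest, and the intronic points lie above the intergenic ones in the first 4 of the 5 bins.

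The tract lay slightly more often on the sense strand of the host gene, in the peaks and in introns in general. TCAT read along the sense strand of the host in 140 of 247 peaks, or 56.7% (50.2 to 62.9). Over all 6952 intronic tracts with a host strand the share was 53.6% (52.4 to 54.7), so the interval of the peaks spans that of introns in general.

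In base composition, peaks with and without a tract differed. Their median GC content in the 200 bp around the centre was 43% with a tract and 49% without, and 47.5% (quartiles 43.5 and 52) over all 1409, against 46.5% in the flanks. GC content was above that of the own flank in 812 peaks, or 57.6%. OLG-only intronic peaks had a median of 51%. Averaged over 50 bp bins, GC content at the centre of peaks without a tract was 49.8% ± 0.279 (SE, n = 1152 peaks), against 45.5% 2 kb to the left, and in peaks with a tract it was 40.6% ± 0.636 (SE, n = 257 peaks), against 47% at the same distance. A TCAT tract is itself poor in G and C. Repeat-masked bases made up a mean of 17.9% of the peak windows and 22.0% of the flanks, and 10.9% of peaks were masked over 50% or more of the window, against 14.5% of flanks. In peaks without a tract the masked mean was 13.0%, so peaks with a tract lay above the mean of all peaks.

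**Figure D3:**
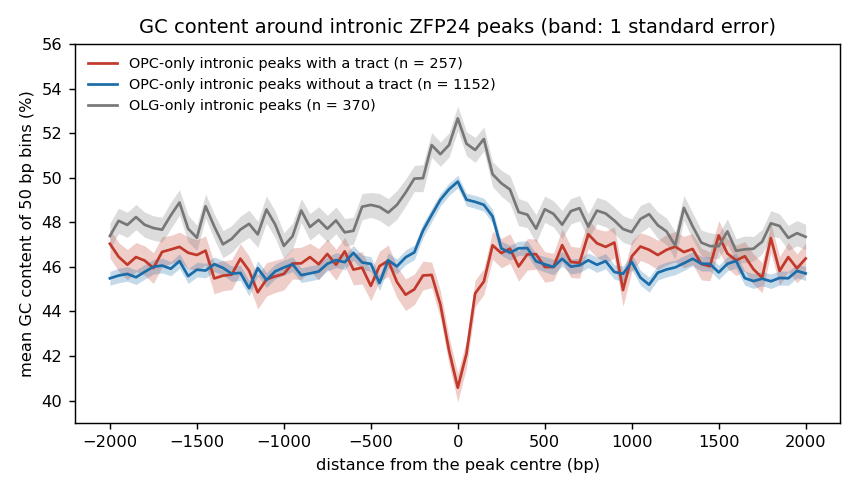
Mean GC content of 50 bp bins (y axis, %) by distance from the peak centre (x axis, bp) in progenitor-only intronic peaks with a TCAT tract (red, n = 257) and without one (blue, n = 1152) and in OLG-only intronic peaks (grey, n = 370); bands show 1 standard error over peaks. At the centre the red curve dips to 40.6%, while the blue and grey ones peak at 49.8% and 52.7%.

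All 2080 sequences of 6 bases, counted on both strands, were compared between the peaks and their right flanks with exact McNemar tests adjusted by the Benjamini-Hochberg method. Of these, 86 (4.13%) were in more peaks than flanks and 104 (5%) in fewer. The 4 that make up the TCAT repeat led the list. GAATGA was in 401 peaks (28.5%), against 115 flanks (8.16%; adjusted exact p = 6.59e-40). ATGAAT was in 26.5% of peaks and 9.72% of flanks. CATTCA was in 29.5% and 12.2%, and AATGAA in 30.7% and 13.5%. Next came words that hold TCAC beside TCAT or in a repeat of its own. ATTCAC was in 16.3% of peaks and 8.16% of flanks (adjusted exact p = 4.48e-09), and GAGTGA in 17.7% and 9.58% (adjusted exact p = 1.61e-07). These words went with the tract: ATTCAC was in 45.1% of the 257 peaks with a tract and in 9.81% of those without, and GAGTGA in 37.4% and 13.3%. Words made of A and T were lower, led by AAAAAA in 9.65% of peaks and 19.7% of flanks (adjusted exact p = 3.48e-11).

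In the 1104 peaks with no TCAT run of 8 bases, 116 words were in more peaks than flanks, of which 100 held at least 4 G or C bases. GCTGCA led them, in 19.9% of these peaks and 10.1% of their flanks (adjusted exact p = 9.05e-08). CGCTCC was in 5.98% and 1.54% (adjusted exact p = 7.57e-06). When only the 277 peaks within 2 percentage points of GC content of their flank were kept, an alternative chosen after seeing the data, 4 words were called higher, all of the TCAT repeat, and 0 lower. That set is smaller, and base composition moved with most of the other words.

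A panel of 14 short recognition sequences of factor families known in the lineage gave 3 calls, none of which held under every setting. TAATTA, a homeodomain core, was in 47 peaks (3.34%) and 86 flanks (6.10%; exact McNemar test, adjusted exact p = 0.00958). GGGCGG, of the SP and KLF families, was in 77 peaks (5.46%) and 45 flanks (3.19%; adjusted exact p = 0.0245). GGAATG, of the TEAD family, was in 188 (13.3%) and 140 (9.94%; adjusted exact p = 0.0265). Both strands were searched, and the 3 words were in 2.67%, 14.5% and 11.4% of all OPC peaks. Against the left flank 0 of the 14 passed, and with GC content balanced as above also 0. The SOX words ACAATG (10.3% of peaks, 9.58% of flanks) and ACAAAG (16.5%, 18.2%) and the OLIG-type E-box CATATG (5.32% of both) did not pass the test. TTGGCA, a part of the NFI site, was in 12.3% of peaks and 9.65% of flanks (adjusted exact p = 0.0752). GGAATG shares 5 of its bases with GAATGA of the TCAT repeat.

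Progenitor-only peaks were denser in introns than between genes. Eligible introns held 1.52 peaks per Mb over 929 Mb, intergenic sequence 0.808 OPC-only peaks per Mb over 1560 Mb, and promoters 28.0 per Mb over 53.5 Mb. Gaps in the assembly were not left out of these lengths, which lowers the density of the class that holds them. Within introns, density was highest just beyond the promoter limit. This was counted over the 1349 peaks with an assigned intron of a coding transcript. Intronic sequence 1 to 2 kb from a coding start held 122 of them, or 4.85 per Mb, and 9.04% (7.57 to 10.7) of the 1349 lay in this 2.81% of intronic sequence. At 2 to 5 kb there were 1.88 per Mb, between 5 and 50 kb the bins held 1.46 to 1.57 per Mb, and beyond 100 kb 1.09 per Mb. The share with a TCAT tract was lowest in peaks 1 to 2 kb from a start, at 10.7% (5.80 to 17.5). It was highest in those 10 to 25 kb away, at 24.5% (19.6 to 30.1). The other distance bins held 15.5% to 19.3%, with 18.3% beyond 100 kb, so the share did not rise steadily with distance. The peak just inside the limit, at St3gal1, lay 1001 bp from a start, and the peak just outside, at Pcdh1, 998 bp. The farthest lay in intron 39 of 69 of Csmd1, 975805 bp from any coding start. The median distance was 27.4 kb (quartiles 8.51 and 68.8). A transcript start of a non-coding gene lay within 1 kb of 30 peaks, or 2.13%, against 1.36% of intronic sequence. Starts of non-coding transcripts of protein-coding genes were not counted in either share. In Sox5, a SOX family factor gene, a peak lay 0.159 kb inside the gene body and 266994 bp from the nearest coding start.

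First introns held more of the peaks than their share of sequence. An intron of a coding transcript of the host was assigned for 1349 peaks, and the other 60 lay in a gene body but in no such intron. The first or only intron held 448 peaks, or 33.2% (30.7 to 35.8), and 25.1% of intronic sequence. Per Mb of intron, there were 2.03 peaks in the first of several introns, 1.53 in the second, 1.31 in later ones and 1.21 in the last. Among peaks over 5 kb from a coding start the first-intron share was 26.5% (23.9 to 29.2), against 21.8% of such sequence. OLG-only intronic peaks had a like share, 118 of 353 or 33.4% (odds ratio 0.990, 0.768 to 1.28, Fisher's exact p = 0.949), an interval that leaves room for differences in either direction. A tract was present in 18.1% (14.6 to 22.0) of peaks in first or only introns and 19.7% (16.6 to 23) of those between the second and the last. Along the intron itself the median position was 48.4% of its length, and the median intron with a peak was 23.8 kb long, against 25.2 kb at an average intronic position.

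**Figure D4:**
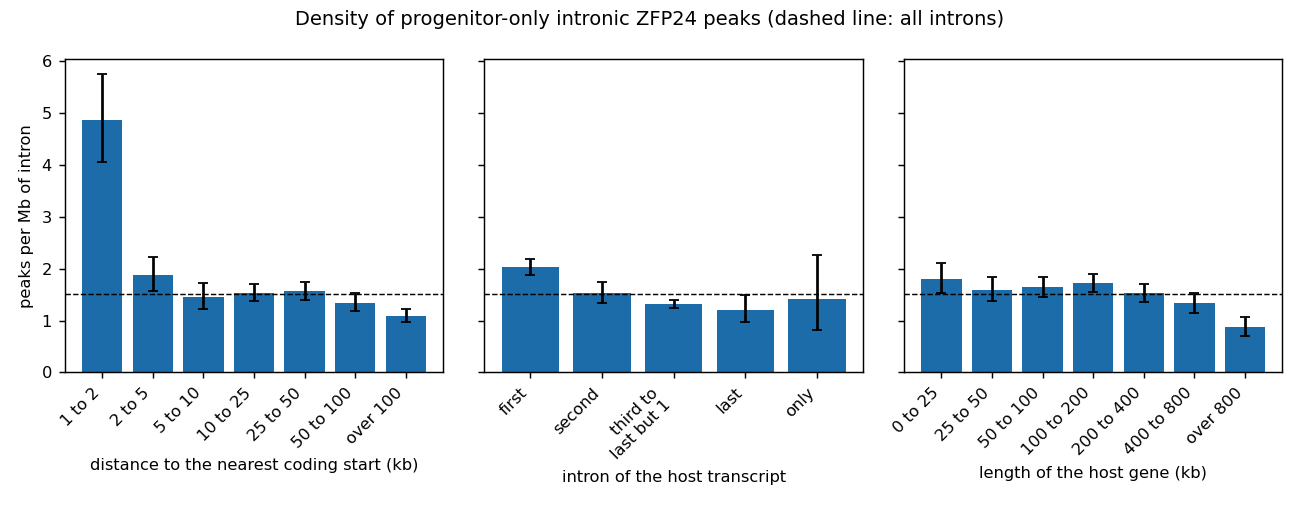
Progenitor-only intronic peaks per Mb of intron (y axis) by distance to the nearest coding start in kb, by intron of the host transcript and by host gene length in kb (x axes), with exact 95% intervals and the value over all introns as a dashed line (1.52). The bin of 1 to 2 kb stands out at 4.85 per Mb, first introns reach 2.03, and genes over 800 kb fall to 0.868.

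Hosts were long compared with genes in general, but not compared with intronic sequence in general. The median length of the gene around a peak was 133 kb, against 156 kb at an average intronic position and 17.4 kb over all protein-coding genes. Per Mb of intron, genes under 25 kb held 1.80 peaks, those of 100 to 200 kb 1.71 and those over 800 kb 0.868. The share of peaks with a tract was 13.9% (8.56 to 20.8) in genes under 25 kb and 21.3% (13.4 to 31.3) in genes over 800 kb, with overlapping intervals.

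Each peak was given 1 host. Where gene bodies overlapped (34 peaks lay in several), it was the shortest gene with the centre in an intron of a coding transcript. Where no gene had such an intron, it was the shortest gene. The 1409 peaks had 1156 hosts, which is 6.14% of the 18839 protein-coding genes with eligible intron. The share of genes that were hosts was 1.39% under 25 kb, 9.09% at 50 to 100 kb, 28.9% at 200 to 400 kb and 52.6% over 800 kb. A promoter peak of OPC was present in 182 hosts, or 15.7% (13.7 to 18), and in 8.42% (8.02 to 8.84) of the other genes. Within length classes the gap was mostly smaller, and the intervals were apart only at 200 to 400 kb. There the shares were 23.7% (17.7 to 30.4) of hosts and 10.9% (8.21 to 14.1) of other genes. Under 25 kb they were 7.09% and 6.29%, at 25 to 50 kb 10.1% and 9.91%, and at 50 to 100 kb 14.0% and 11.8%. At 100 to 200 kb they were 17.0% (12.7 to 21.9) and 13.8% (11.9 to 15.8). At 400 to 800 kb they were 20.0% and 12.7%, and over 800 kb 21.6% and 10.9%. An OLG peak lay in the body of 199 hosts, and 24 of the 1409 peaks had an OLG peak centre within 1 kb without sharing a base. The like shares of other genes and of intronic sequence were not counted, so neither count can be read as high or low. The nearest OLG centre was a median of 303 kb away.

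Several progenitor-only intronic peaks were present in 187 genes, which together held 440 peaks, or 31.2%. Among hosts, 969 held 1 peak, 144 held 2, 31 held 3 and 12 held 4 or more. Hosts of several were longer, with a median of 279 kb against 93.3 kb for hosts of 1. Neighbouring peaks in a gene were a median of 54.8 kb apart (quartiles 22.7 and 159), the shortest gap was 416 bp, and 12 of 253 neighbouring pairs lay within 1 kb. In 54 of the 187 genes all peaks shared an intron. Of the 144 genes with 2 peaks, 2 had a tract in both, 49 in 1 of them and 93 in neither.

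The largest number, 8, was in Gm20388, a gene model of 4435 kb on chromosome 8 whose first intron of 4384 kb spans other genes, so its peaks share little more than that model. Kcnd3, which encodes a voltage-gated potassium channel of the A type, held 6 in 222 kb. They lay 29.0, 133, 171, 211, 211 and 215 kb from the gene's 5′ end, so the last 3 lay close together, in introns 3 and 5. Of these 6, the peak printed above held a tract, of 37 bases. Anks1b, an ankyrin repeat gene of the postsynaptic density, also held 6, of which 4 lay in intron 15 between 724 and 754 kb from the 5′ end, with tracts of 32 and 26 bases in the last 2.

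Pde4b, a cyclic AMP phosphodiesterase gene, Zfhx3, a zinc finger and homeobox factor gene, and Prkg1, a cyclic GMP-dependent kinase gene, held 5 each. Pde4b and Zfhx3 had a tract in 1 peak each, of 19 and 25 bases, and Prkg1 in none. Hosts of 4 were Tcf7l1, a TCF family factor gene of the Wnt pathway with all 4 in intron 3, the longer of 2 overlapping models named Arhgap26, with all 4 in intron 1, and Tmem108, Mad1l1, Agap1 and Cdh13. A further peak inside that Arhgap26 model was assigned to the shorter model of the same name, in intron 3 of 22. Mad1l1 encodes a spindle checkpoint protein, Agap1 an Arf GTPase-activating protein and Cdh13 a cadherin anchored by lipid. Tmem108, Agap1 and Cdh13 had no peak with a tract. Among hosts of several, peaks were densest per Mb of intron in Glp1r (71.4), a peptide hormone receptor gene, Irak4 (64.5), an innate immune kinase gene, Jade2 (55.6), Map3k7cl (50) and P2rx7 (50), an ATP-gated channel gene. Each of these held 2 peaks, so these densities rest on few counts. The 2 peaks of Glp1r lay 1.77 kb apart in its last intron, the first with a tract of 29 bases. An OLG peak centre lay 0.273 kb from the first and 2.05 kb from the second, without a shared base.

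**Figure D5:**
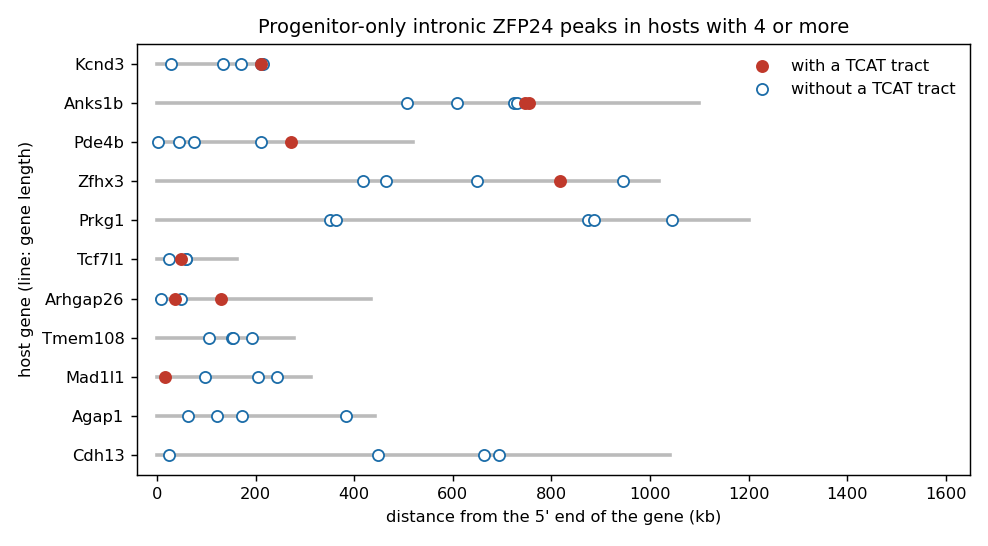
Position of progenitor-only intronic peaks along the 11 genes other than Gm20388 that held at least 4, in kb from the 5′ end of the gene (x axis), with the gene's length as a grey line; filled red points held a TCAT tract and open blue points did not. The last 3 peaks of Kcnd3 and the last 4 of Anks1b lie close together, and each gene has at most 2 peaks with a tract.

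Of 17 genes central to the lineage, 4 held such a peak, or 4 of the 15 with eligible intron, beside 6.14% of all genes. The 4 were Sox5 (954 kb), Tcf7l2 (192 kb), Zeb2 (134 kb) and Mag (15.7 kb). Over all genes the host share rose with gene length, as given above, and no share matched for length was counted here. These few genes were not tested. Among the transcription factors, Sox5 and Tcf7l2 held 2 each and Zeb2 held 1, none with a tract, and there was none in Zfp24 itself, Sox10, Sox6, Nfia or Nfib, nor in Olig1 and Olig2, which have no eligible intron. Olig1 and Nfia each had an OPC-only promoter peak, and Nfib had 2 OLG peaks in its body. Both peaks of Tcf7l2, which acts in oligodendrocyte differentiation, lay in intron 3, 1912 and 14492 bp from the nearest coding start. The progenitor receptor and surface genes Pdgfra, Cspg4 and Ptprz1 had none. Of the myelin genes Mag had 1, and Mbp, Mog and Myrf, the last a factor that drives myelin genes, had none.

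Over the list of 45 lineage regulators, 7 of 37 with eligible intron were hosts (18.9%), with 10 peaks or 2.07 per Mb of intron (exact Poisson 95% interval 0.991 to 3.8). Over all genes the host share was 6.14% and the density 1.52 per Mb (1.44 to 1.60). Zfp536 and Myt1, zinc finger factor genes, were among the 7. Progenitor markers gave 7 of 28 hosts (25%; 1.46 per Mb, 0.701 to 2.69), with 2 peaks each in Lhfpl3, the extracellular matrix gene Tnr and the xylosyltransferase gene Xylt1, and 1 in Dscam. Myelin genes gave 9 of 40 (22.5%) and 10 peaks, at 5.27 per Mb (2.53 to 9.69). Among these, Nfasc, which encodes the axo-glial adhesion protein neurofascin, had 2, and Dock10, Enpp6 and Kif1b had 1 each.

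Lists of long genes had many hosts, with intervals of peak density that spanned or lay below the value over all genes. Cell adhesion and synapse organiser genes, with a median length of 867 kb, gave 22 of 48 hosts (45.8%). Of all genes, 41.2% of those of 400 to 800 kb and 52.6% of those over 800 kb were hosts. The listed genes held 0.856 peaks per Mb (0.596 to 1.19). Among them Nrxn3, a presynaptic adhesion gene, was the one host of 3 with a tract in all 3 peaks, of 32, 12 and 43 bases. Ptprm and Tenm4 also held 3. Ion channel and neurotransmitter receptor genes gave 17 of 55 (30.9%) at 1.22 per Mb (0.807 to 1.78), with 3 peaks in the calcium channel gene Cacna1c and 2 each in Cacna2d3 and Gria2. The pair in Gria2, an AMPA receptor subunit gene, lay 1553 and 2271 bp from a coding start. Axon guidance genes gave 15 of 44 (34.1%) at 2.01 per Mb (1.28 to 3.02), with 3 peaks in the Slit receptor gene Robo1 and in Sema6d and 2 in the ephrin receptor genes Epha7 and Ephb1.

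In the signalling lists, Notch, Wnt and BMP genes gave 8 of 44 hosts (18.2%) and 16 peaks, at 3.29 per Mb (1.88 to 5.35). Of the 16 peaks, Zfhx3 held 5 and Tcf7l1 held 4. The part of Zfhx3 in these pathways was not examined, and the density of the list without it was not counted. Maml3, a Notch coactivator gene, held 2, and Axin2, a feedback inhibitor of Wnt signalling, held 1 with a tract of 28 bases. Growth factor, PI3K and mTOR genes also gave 8 of 44, at 0.983 per Mb (0.471 to 1.81). There were 2 peaks each in Igf1r and in Fgfr2, whose model spans 2961 kb, and 1 each in Fgfr1 and Irs2. Both Fgfr2 peaks lay in an intron of 2909 kb, 11.6 and 654 kb from the nearest exon of that transcript. They are thus at Fgfr2 by that long model only, which also adds 1.37 Mb to the intron length of the list. Chromatin regulators gave 7 of 48 (14.6%) at 1.47 per Mb (0.636 to 2.90), among them Prdm16 with 2 and the DNA methyltransferase gene Dnmt3a with 1. Cholesterol and lipid synthesis genes gave 9 of 36 (25%) and 12 peaks, at 5.68 per Mb (2.93 to 9.92), with 2 each in Acaca, which encodes the enzyme that commits acetyl-CoA to fatty acid synthesis, and in the sphingomyelin synthase genes Sgms1 and Sgms2, and 1 in Acacb. Both Sgms2 peaks lay in no intron of a coding transcript, 0.962 and 1.38 kb inside the gene body. They were 74319 and 74735 bp from the nearest coding start. Cell cycle genes gave 4 of 39 (10.3%) and 8 peaks, at 6.13 per Mb (2.65 to 12.1), of which 4 lay in Mad1l1, 2 in Ccnd3 and 1 each in Cdk6 and Cenpf.

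Markers of other cell types were hosts as well. Neuronal markers gave 6 of 24 (25%; 2.14 per Mb, 0.978 to 4.06), with 2 peaks each in Celf4, Rbfox1 and Rbfox3. Astrocyte markers gave 4 of 19 (21.1%; 2.25 per Mb, 0.730 to 5.25), with 2 in the glutamate transporter gene Slc1a3. Vascular markers gave 2 of 18 (11.1%; 1.91 per Mb, 0.232 to 6.91), Myh11 and Pecam1, and microglial markers 1 of 18 (5.56%; 3.21 per Mb, 0.388 to 11.6), Mertk. These lists are described only, with no test, and peaks in a gene do not count as independent of each other.

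The peaks were spread over the autosomes and scarce on the X chromosome. Autosomes held 1405 in 888 Mb of eligible intron, or 1.58 per Mb, with chromosome 14 lowest among them at 1.26 and chromosome 11 highest at 2.14. The X chromosome held 4 in 41.2 Mb, or 0.0971 per Mb. Of intronic TCAT tracts, 311 of 6844 on autosomes were at a peak (4.54%, 4.06 to 5.06), and 1 of 277 on the X (0.361%, 0.00914 to 1.99). OLG-only intronic peaks numbered 369 on autosomes and 1 on the X, so the scarcity was in both lists. Over all locations the OPC list had 32 peaks on the X. The labels do not give the sex of the animals, and its part in this was not tested.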

How the data were processed

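Per the labels' protocols, chromatin was precipitated with an anti-ZNF24 antibody; there were 5 libraries, 1 in each group. The authors deposited 2 peak lists, 1 for OPC and 1 for OLG, whose unit is a position: chromosome, start, end and a name, with no score. Per the submitters' processing notes BWA, HOMER 4.8.3 and mm10 were used; the role of the controls in calling is not given in the sources used. Positions are 1-based. Peaks were placed with the GENCODE M21 basic annotation and the GRCm38.p6 sequence, in which 0 peaks ran past the end of 20 chromosomes. Intron shares and lengths in Mb come from positions every 1 kb, gaps in the assembly included. A tract is a tandem TCAT run of 12 bases or more, in any phase of the repeat and on any strand; flanks are 200 bp windows 2 kb to the right. Tests were exact and two-sided, adjusted by the Benjamini-Hochberg method, with a threshold of 0.05, in Python 3.11.15, scipy 1.17.1 and numpy 2.4.6, and were checked on simulated data. Introns are numbered in the longest coding transcript of the host that has the centre in an intron. The peaks, the 16 gene lists and the 14 motifs were chosen with earlier results of these data known. Genes named are the 12 hosts with most peaks, up to 4 hosts per list, the 10 longest tracts, the 5 densest hosts, the extremes of length and distance, and 17 lineage genes in any case; 1 list and some genes that this rule names are not reported here. Read signal was not analysed here.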

Additional observations from a re-analysis of the deposited data

How the results depend on the processing

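Of the alternatives to the 10 results tested or counted, 36 kept the direction and the side of the threshold or, for counts, stayed within 1.5 times. The share of progenitor-only intronic peaks with a TCAT tract lay between 12.2% (window of 100 bp) and 21.6% (tract of at least 8 bases), and the flank share was at most 2.34%. The comparison with OPC-only intergenic peaks missed the threshold with a window of 100 bp (odds ratio 1.26) and a promoter limit of 500 bp (odds ratio 1.15), and the cause was not tested. The first-intron odds ratio against OLG-only intronic peaks, 0.990, changed side at promoter limits of 2 kb (1.02, exact p = 0.890) and 5 kb (1.16, exact p = 0.391), without passing the threshold under any setting tried. The 3 motif panel calls became 0 with the left flank, 1 without peaks that held a TCAT run of 8 bases, and 0 with GC content balanced. The 190 called words of 6 bases became 4 with GC content balanced, a set of 277 peaks. The number of peaks was between 1284 and 1639 under other rules, and that of genes with several peaks between 169 and 187. No paired analysis was possible because each group was 1 library. Depth is unknown, so what a deeper library would add to either list cannot be said.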
